A study of Homo sapiens with 4 samples.

Results

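Mesenchymal state genes are genes used as markers of the mesenchymal form of neuroblastoma. The set had 10 members, named as markers of that state, out of 60612 genes in the count table. They were the transcription factors PRRX1, SNAI2 and TWIST1, the transcriptional co-activators YAP1 and WWTR1, the AP-1 subunits FOSL1 and FOSL2, the matrix protein FN1, and the surface proteins CD44 and AXL. The rule used their names and no threshold on a measured value, and each gene was matched by its symbol and Ensembl ID. 6 members had enough reads to be tested, and PRRX1, WWTR1, FOSL1 and AXL were too low.

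Neuroblastoma cells are known to occupy an adrenergic state, held by factors such as HAND2 and GATA3, or a mesenchymal state that resembles neural crest cells and expresses vimentin, fibronectin and AP-1 factors. Cells can move between the states, and mesenchymal cells have been associated with migration and drug resistance. The co-activators YAP1 and WWTR1 (also called TAZ) bind DNA through TEAD factors and are held back by the kinases of the Hippo pathway. AXL is a receptor tyrosine kinase that is often high in mesenchymal tumour cells.

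The series asked how gene expression changes when NeuroD1, a basic helix-loop-helix transcription factor of neuronal development, is depleted. Polyadenylated RNA was sequenced from IMR-32, an established human neuroblastoma line, in 2 shControl and 2 shNeuroD1 libraries. Both groups are described as stably transduced cells that carried an inducible hairpin RNA, a control hairpin or one against NeuroD1. Both received doxycycline at 1 µg/mL for 48 h to induce it. The study's text calls the sequenced control IMR-32 cells parental, while its figure legends name a control hairpin. All cells were thus of 1 line, and the labels call the control genotype WT without naming separate cultures, so that p-values measure only the spread between these libraries, which may be technical. The study's gene table names a single NeuroD1 hairpin with replicates 1 and 2, but the titles of the shNeuroD1 libraries also match the names of 2 hairpins of the study. The numbers were read as replicates, and the spread within shNeuroD1 may be that between hairpins.

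The libraries held 14665210 to 16482463 counted reads, so 3 counts, taken as the limit that a count of 0 allows, were worth 0.189 to 0.204 CPM (counts scaled by TMM to a common library size). NEUROD1 gave 6174 and 6582 counts in shControl against 969 and 886 in shNeuroD1, which was 14.6% of the control level. Markers of adrenergic neuroblastoma were present in every library, with HAND2 at 11656 and 12452 counts in shControl against 11030 and 10812 in shNeuroD1. Their summed level was 2339 to 2365 CPM in shControl and 2137 to 2163 CPM in shNeuroD1. At an adjusted p under 0.05 in edgeR's quasi-likelihood test, 26.8% of all tested genes were higher and 28.2% lower. Of the 10 markers 5 were higher and 4 lower. Without shNeuroD1 replicate 2, or with scaling by library totals, 2 were lower.

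The second shControl library stood apart from the first in weakly expressed mesenchymal genes. This was noticed after the counts were seen. Of 25 genes among the members and related lists with at least 8 counts in all and at most 30 in any library, 13 were more than 2 times as high (in CPM) in shControl replicate 2 as in replicate 1 and 2 the reverse. The shares were 52.0% and 8.0%, and among 7880 genes of the whole table chosen in the same way they were 19.7% and 18.3%. For calls named below that were lost without this library, either the gene's values or only the count of its list without it are given. The cause was not tested.

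The co-activator YAP1 fell and the hyaluronan receptor CD44 rose. TWIST1, SNAI2 and FN1 were lower by smaller amounts, FOSL2 did not pass the test, and the remaining 4 genes were at or near the counting limit. At an adjusted p under 0.05 (edgeR), 4 of the 6 tested members were lower and 1 was higher, where 28.2% of all 17537 tested genes were lower and 26.8% higher. When a log2 fold change beyond 1 in size was also required, 1 member was lower (YAP1) and 1 was higher (CD44), against 5.14% and 8.79% of all tested genes. The median log2 fold change of the tested members was -0.42 and that of all tested genes 0.01. With libraries scaled by their totals alone the median of all genes moved to 0.12, and the calls over all genes changed from 4698 higher and 4939 lower to 6114 higher and 3639 lower. The direction of each tested member was the same under that scaling.

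**Figure D1:**
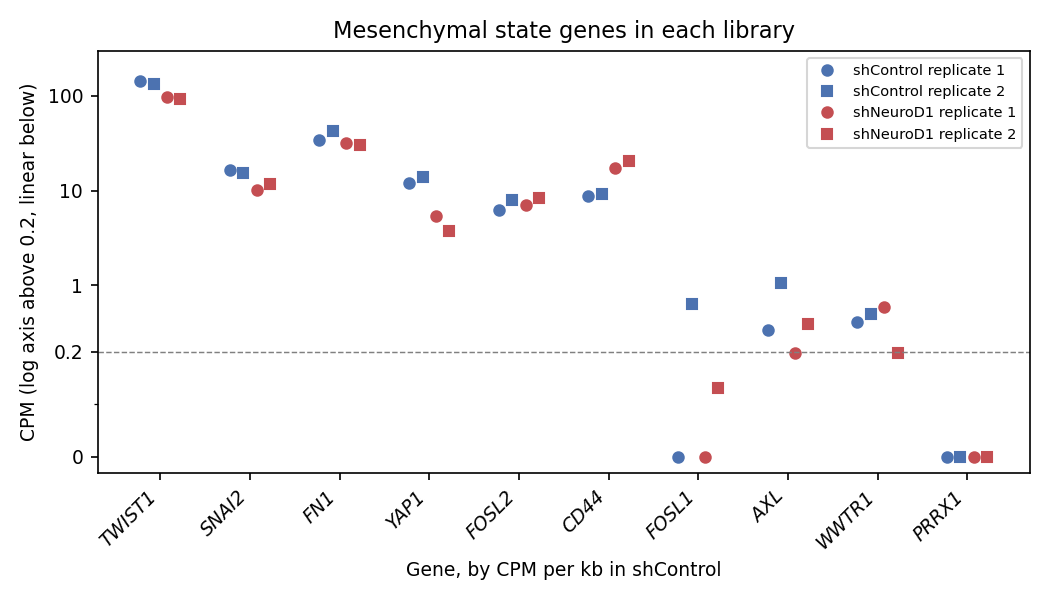
TMM-scaled CPM of the 10 mesenchymal state genes in each library (circles, replicate 1; squares, replicate 2; blue, shControl; red, shNeuroD1). The axis is logarithmic above 0.2 CPM, the dashed line, which is about the level of 3 counts, and linear below it; TWIST1 lies highest and PRRX1 at 0 in all 4 libraries.

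Levels between genes were compared per kilobase of merged exons. In shControl, TWIST1 was the highest member at 68.2 ± 2.64 CPM per kb (SD, n = 2), above 97.0% of 17303 tested genes with a known length. SNAI2 followed at 4.65 ± 0.244 CPM per kb. FN1 at 2.22 ± 0.308 and YAP1 at 2.05 ± 0.207 CPM per kb differed by less than their spread, as did FOSL2 at 0.991 ± 0.154 and CD44 at 0.900 ± 0.0264. The order of the tested genes in shNeuroD1 was TWIST1 at 46.3 ± 1.54 CPM per kb, SNAI2 at 3.22 ± 0.298, CD44 at 1.895 ± 0.235, FN1 at 1.80 ± 0.0494, FOSL2 at 1.07 ± 0.129 and YAP1 at 0.725 ± 0.185. CD44 and FN1 did not differ beyond their spread there. YAP1 thus moved from the fourth place to the last of the tested genes.

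TWIST1 is a basic helix-loop-helix factor of the neural crest and of mesoderm, and can drive epithelial to mesenchymal transition (EMT). It was counted 2101 and 2142 times in the shControl libraries and 1466 and 1400 times in the shNeuroD1 libraries. Both knockdown libraries were lower and the groups did not overlap. The log2 fold change was -0.56 ± 0.05 (SE) with an adjusted p of 5.59e-11 by edgeR, so 67.9% of the control level remained. On log2(FPKM + 1) of its transcript starts the direction turned, to 0.03, and did not pass (adjusted p = 0.969, limma). The highest listed TWIST1 start had 2.43 FPKM, in shNeuroD1 replicate 1, while the counts gave 68.2 CPM per kb in shControl and 46.3 in shNeuroD1. The listed starts were thus far below the counted level, and the FPKM fit cannot weigh the change in counts. The gene lies at chr7:19020991-19117672 on the minus strand (GRCh38, GENCODE 29). It shares 141 exonic bases with AC003986.2 on the opposite strand, which had 167 and 141 counts in shControl against 246 and 224 in shNeuroD1. Whether strand was used in counting is not given in the sources used here, so reads of the shared bases could not be assigned with certainty.

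SNAI2 (Slug) is a zinc-finger repressor of E-cadherin and a neural crest factor. It had 241 counts in each shControl library, 155 in shNeuroD1 replicate 1 and 177 in replicate 2. The knockdown libraries were again the lower ones without overlap. The log2 fold change was -0.53 ± 0.12 (SE), with an adjusted p of 0.000557 in edgeR. Without shControl replicate 1 it was -0.48 and no longer passed (adjusted p = 0.0637). SNAI2 lies at chr8:48917604-48921740, minus strand.

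PRRX1 is a homeobox factor that can turn adrenergic neuroblastoma cells mesenchymal. No read was counted for it in any of the 4 libraries, which allows up to 0.189 to 0.204 CPM per library and covers counting error only. The gene lies at chr1:170662728-170739419 on the plus strand, and no start or end of a PRRX1 transcript was listed in the transcript tables. No fold change can be given.

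A list of 8 other EMT transcription factors was described beside these. Among its 5 tested genes 3 were lower and 1 was higher (edgeR, adjusted p under 0.05), with a median log2 fold change of -0.28. For this list and those below, the shares of all tested genes at that threshold were 28.2% lower and 26.8% higher. ZEB1, a zinc-finger repressor of epithelial genes, had 3145 and 3596 counts in shControl against 1562 and 1609 in shNeuroD1 (log2 fold change -1.08). SNAI1 (Snail), the paralogue of SNAI2, went from 302 and 278 counts to 150 and 154, a log2 fold change of -0.92. TCF4, an E protein that pairs with TWIST1 and NeuroD1, was lower by a log2 fold change of -0.28 (0.03 on FPKM, adjusted p = 0.888, limma). PRRX2, the paralogue of PRRX1, had 326 and 303 counts in shControl against 420 and 407 in shNeuroD1, so it was expressed in all libraries and rose by a log2 fold change of 0.40; without shControl replicate 2 no gene of the list was called higher.

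Other mesenchymal transcription factors moved in both directions. Of 30 listed, 23 were tested, of which 8 were higher, 8 lower and 7 did not pass. Their median log2 fold change was 0.15. IFI16, an interferon-inducible DNA sensor, rose from 265 and 287 counts to 1392 and 1293 counts, a log2 fold change of 2.29. SOX9, a neural crest and cartilage factor, rose from 37 and 40 counts to 105 and 118. TBX18, a T-box factor of mesenchymal progenitors, fell from 41 and 45 counts to 4 and 7, and TCF7L2, a partner of beta-catenin, fell by 1.56 on the log2 scale. The most abundant genes of the list, ELK4 and ZNF217, had log2 fold changes of -0.33 (lower) and 0.04 (adjusted p = 0.512, edgeR). Without shControl replicate 2, 5 were higher and 6 lower.

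YAP1 showed the widest change among the tested members. Its counts were 177 and 220 in shControl, compared with 82 and 57 in shNeuroD1. Each knockdown library had less than any control library. The mean level went from 12.9 ± 1.31 CPM to 4.57 ± 1.17 CPM (SD, n = 2 each), which left 35.3% of control. The log2 fold change was -1.502 ± 0.167 (SE), and edgeR gave an adjusted p of 3.39e-09, and it ranged from -1.79 to -1.27 when each library was left out in turn. YAP1 lies at chr11:102110461-102233423 on the plus strand. It shares 628 exonic bases with the opposite-strand gene AP000942.2, which had 0 counts in all libraries. In bulk RNA, fewer cells with a transcript and less of it per cell cannot be told apart.

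The 250 bases before the RefSeq transcript start of YAP1 (chr11:102110197-102110446, plus strand, GRCh38.p14) are shown because YAP1 had the widest change of the tested members. NeuroD1 and TWIST1 are known to bind E-boxes of the form CANNTG. Capitals mark matches to CANNTG and to the TEAD motif GGAATG on either strand.
YAP1 promoter: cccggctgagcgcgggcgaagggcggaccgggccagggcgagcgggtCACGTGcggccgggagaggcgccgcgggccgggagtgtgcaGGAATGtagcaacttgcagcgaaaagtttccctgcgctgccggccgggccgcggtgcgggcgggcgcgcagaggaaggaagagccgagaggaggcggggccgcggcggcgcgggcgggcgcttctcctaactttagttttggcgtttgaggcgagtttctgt
The window held 1 CANNTG, of the form CACGTG, and 1 GGAATG, which do not overlap, and no AP-1 motif TGANTCA. The CANNTG forms CAGATG and CAGCTG were searched in the same way and had 0 matches in the YAP1 window. CAGATG had 1 match in a WWTR1 window and 1 in an AXL window. Of 35116 promoter windows of the same length, 61.8% held CANNTG, 6.35% CACGTG, 12.15% CAGATG, 13.99% CAGCTG, 11.9% GGAATG and 6.57% TGANTCA. These are matches of letters and not sites of binding. In the windows of FN1 and CD44 there was none of these motifs, and FN1 had 1 match to the cyclic AMP response element TGACGTCA, held by 1.65% of windows. Promoters of 7 of the 10 members were matched.

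YAP1 transcripts are spliced with or without a short exon in the part that codes for the activation domain. It lies at chr11:102209517-102209564, plus strand, and its 48 bases are printed in capitals with 12 bases of the neighbouring exons in lower case. The exon is shown because the transcript tables list its inclusion and its skipping as separate events.
YAP1 alternative exon: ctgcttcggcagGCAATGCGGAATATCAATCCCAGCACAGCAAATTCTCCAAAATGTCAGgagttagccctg
The tables give FPKM (fragments per kilobase of transcript, scaled to library size) of assembled transcripts and list no event at 0. Transcripts with the exon had 0.659 FPKM in shControl replicate 1 and 0.696 in replicate 2, and were not listed in either shNeuroD1 library. Transcripts that skip it had 0.442 and 0.572 FPKM in shControl and 0.604 in shNeuroD1 replicate 1, and were not listed in replicate 2. Included transcripts were thus 59.9% and 54.9% of the sum in the 2 control libraries, and no share could be formed in shNeuroD1. The YAP1 transcript start had 1.10 and 1.27 FPKM in shControl and was not listed in either shNeuroD1 library. Shares of so few reads have an unknown error, since the event tables give no counts, and the knockdown libraries held only 82 and 57 reads of YAP1.

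WWTR1, the paralogue of YAP1, was low throughout, with 6 and 8 counts in shControl against 9 and 3 in shNeuroD1. The groups overlapped, and a difference was not detectable at this depth. When genes with low counts were also fitted, the edgeR log2 fold change was -0.22 ± 0.65 (SE, adjusted p = 0.840). WWTR1 lies at chr3:149517235-149736714 on the minus strand and shares 795 exonic bases with WWTR1-AS1, which had no counts.

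Among genes of the Hippo pathway and the TEAD factors more were lower than higher. All 17 listed genes were tested, 9 were lower, 1 was higher and 7 did not pass (edgeR, adjusted p under 0.05). At that threshold 28.2% of all tested genes were lower and 26.8% higher. The median log2 fold change of the list was -0.17. VGLL3, a co-factor of TEADs, had 791 and 798 counts in shControl against 108 and 133 in shNeuroD1 (log2 fold change -2.71). LATS2, a kinase that phosphorylates YAP1, went from 142 and 164 counts to 61 and 53. TEAD3 and TEAD2, DNA-binding partners of YAP1, were lower by log2 fold changes of -0.87 and -0.70. TEAD1, the most abundant TEAD, had 3482 and 4018 counts in shControl against 3928 and 3984 in shNeuroD1 and did not pass (log2 fold change 0.09, adjusted p = 0.0976, edgeR), nor did MOB1A, an adaptor of the LATS kinases, with -0.08. With libraries scaled by their totals alone 6 genes were lower and 3 higher, and without shControl replicate 2 there were 6 and 2.

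Known targets of YAP and TAZ moved both ways. Of 22 listed, 17 were tested, 8 were lower, 5 higher and 4 did not pass, and the median log2 fold change was -0.49. Over all tested genes 28.2% were lower and 26.8% higher. F3, tissue factor, had 240 and 261 counts in shControl against 18 and 25 in shNeuroD1 (log2 fold change -3.53). AJUBA, a LIM protein that binds LATS kinases, went from 216 and 224 counts to 57 and 73, while its FPKM gave a log2 difference of 0.31 (adjusted p = 0.551, limma). CCN1, a matricellular protein, went from 150 and 160 counts to 43 and 52. In the other direction IGFBP3, a binding protein of insulin-like growth factors, had 3 and 2 counts in shControl against 59 and 74 in shNeuroD1. The most abundant genes were RBMS3, an RNA-binding protein, with a log2 fold change of -0.08 that did not pass (adjusted p = 0.233, edgeR), and ASAP1, a regulator of ARF GTPases, which was lower by -0.49. CCN2 and ANKRD1, the targets most often used as readouts and named here after their values were seen, were too low to test, with at most 5 and 7 counts in any library. Without shControl replicate 2, 7 genes were lower and 4 higher.

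**Figure D2:**
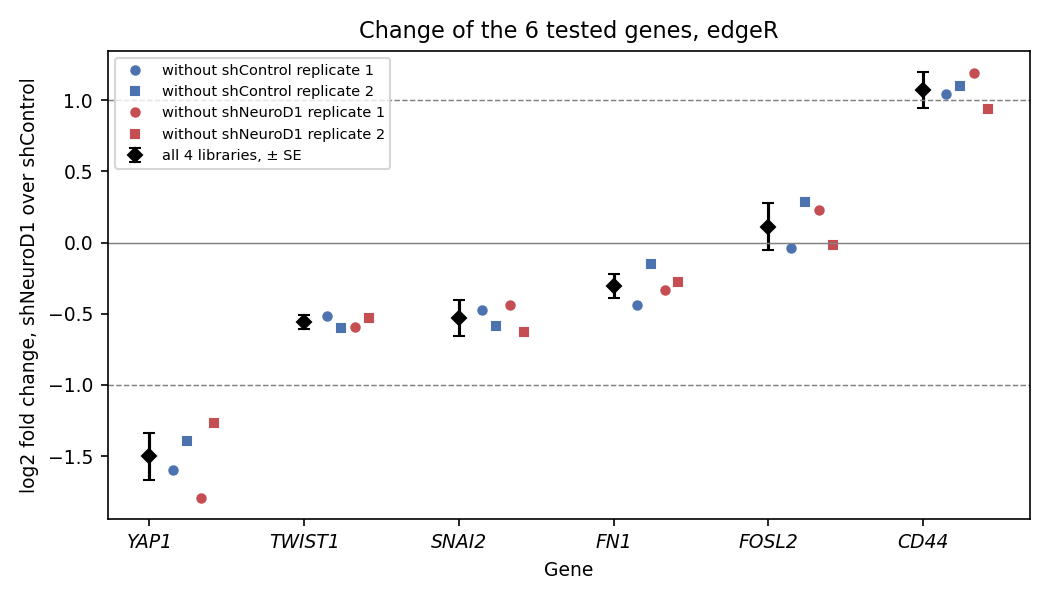
Log2 fold change of the 6 tested members, shNeuroD1 over shControl, from edgeR. Black diamonds with bars give the fit on all 4 libraries ± SE, coloured points the fits with 1 library left out, and dashed lines a change of 1 in either direction; YAP1 stays below -1, CD44 falls to 0.94 without shNeuroD1 replicate 2, and FN1 comes closest to 0 without shControl replicate 2.

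CD44 is the receptor for hyaluronan and a marker of mesenchymal cells. It was counted 130 and 146 times in shControl and 263 and 314 times in shNeuroD1. Both knockdown libraries were higher without overlap. The level rose from 9.01 ± 0.265 CPM to 19.0 ± 2.36 CPM (SD, n = 2 each), a log2 fold change of 1.07 ± 0.13 (SE), with an adjusted p of 1.23e-08 in edgeR. Without shNeuroD1 replicate 2 the log2 fold change was 0.94, under the limit of 1, with an adjusted p of 3.97e-08 by edgeR. CD44 lies at chr11:35138870-35232402 on the plus strand and shares 84 exonic bases with CD44-AS1, which had at most 6 counts in any library.

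CD44 transcripts join their constant exons directly (the standard form) or include variable exons that extend the part outside the cell. The joint of the standard form, from base 35190065 to base 35214852 of chromosome 11, and the last variable exon, at chr11:35211246-35211449, are shown because they tell the 2 forms apart. In the joint, capitals mark the 20 bases of the downstream exon. In the variable exon they mark its 204 bases, with 12 bases of the neighbouring exons in lower case.
CD44 junction without variable exons: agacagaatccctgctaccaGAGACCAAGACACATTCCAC
CD44 last variable exon: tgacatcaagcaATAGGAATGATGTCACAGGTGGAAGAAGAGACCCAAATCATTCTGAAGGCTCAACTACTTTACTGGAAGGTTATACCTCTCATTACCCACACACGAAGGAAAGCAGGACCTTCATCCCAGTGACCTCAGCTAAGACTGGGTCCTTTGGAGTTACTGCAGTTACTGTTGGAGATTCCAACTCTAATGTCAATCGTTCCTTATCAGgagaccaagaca
Transcripts without variable exons had 0.980 and 1.08 FPKM in shControl and 2.48 and 2.46 FPKM in shNeuroD1. The standard form was thus the main one in every library and its values did not overlap between the groups. The main CD44 start had 1.21 and 1.15 FPKM in shControl against 3.11 and 2.67 in shNeuroD1. A start further inside the gene, at chr11:35214666-35214914, had 1.088 FPKM in shNeuroD1 replicate 2 and at most 0.01091 in any other library. It entered the sum of starts in the FPKM fits. Transcripts with the last variable exon were listed only in the knockdown libraries, at 0.462 and 0.0225 FPKM, which was 15.04% and 0.906% of the sum of included and skipped forms. The exon values are given as a description with no test. An exact permutation test of 2 libraries against 2 cannot go below p = 0.33.

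FN1 encodes fibronectin, the matrix glycoprotein that binds integrins. It had 510 and 669 counts in shControl against 483 and 465 in shNeuroD1. The knockdown libraries were lower, but the gap to shControl replicate 1 was small beside the spread of the controls. The log2 fold change was -0.30 ± 0.08 (SE), with an adjusted p of 0.00295 in edgeR. It was -0.15 without shControl replicate 2, which had the higher FN1 count of the controls. It did not pass with DESeq2 (-0.32, adjusted p = 0.0671) or with scaling by library totals (-0.19, adjusted p = 0.0564, edgeR). Nor did it pass without a filter on low counts (-0.32, adjusted p = 0.0568, edgeR) or on FPKM. FN1 lies at chr2:215360440-215436172 on the minus strand.

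Fibronectin made by cells in tissue can carry the extra domains EDB and EDA, each coded by 1 alternative exon that plasma fibronectin lacks. Both exons are printed because the tables list which of the 2 the transcripts carried. EDB lies at chr2:215392931-215393203 and EDA at chr2:215380811-215381080, both on the minus strand. The exon is in capitals, of 273 bases for EDB and 270 for EDA, and 12 bases of each neighbouring exon are in lower case.
FN1 EDB: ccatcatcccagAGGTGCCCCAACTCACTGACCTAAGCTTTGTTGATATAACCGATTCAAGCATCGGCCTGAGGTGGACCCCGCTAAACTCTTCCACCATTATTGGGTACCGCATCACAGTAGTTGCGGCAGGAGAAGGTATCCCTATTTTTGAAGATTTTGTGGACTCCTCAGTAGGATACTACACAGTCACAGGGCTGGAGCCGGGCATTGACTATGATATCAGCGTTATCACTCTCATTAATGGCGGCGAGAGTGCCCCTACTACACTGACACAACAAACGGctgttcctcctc
FN1 EDA: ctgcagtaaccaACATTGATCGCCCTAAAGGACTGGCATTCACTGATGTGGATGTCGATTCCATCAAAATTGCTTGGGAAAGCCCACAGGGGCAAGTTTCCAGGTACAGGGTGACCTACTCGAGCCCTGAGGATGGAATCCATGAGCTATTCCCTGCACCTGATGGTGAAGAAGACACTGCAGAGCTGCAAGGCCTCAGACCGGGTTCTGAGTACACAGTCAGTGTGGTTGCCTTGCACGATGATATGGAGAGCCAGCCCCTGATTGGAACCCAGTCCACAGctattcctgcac
Transcripts with EDB had 1.43 and 1.36 FPKM in shControl and 0.645 FPKM in shNeuroD1 replicate 2. Those with EDA had 1.43, 1.42 and 0.645 FPKM in the same libraries. Skipping of either exon was listed only in shControl replicate 2, at 0.183 FPKM for EDB and 0.351 FPKM for EDA, so EDB was included in 88.2% and EDA in 80.2% of that library's sum. Inclusion could thus be set against skipping in 1 library only. In shNeuroD1 replicate 1 neither exon was listed as included or skipped. The FN1 start was listed there at 1.02 FPKM, and so was a transcript end at chr2:215414661-215414958. This end lies before both exons in the direction of transcription. A further end at chr2:215360454-215361626, which lies after both exons, was also listed in that library, at 0.264 FPKM. The FN1 start had 1.43 and 1.57 FPKM in shControl and 0.651 in shNeuroD1 replicate 2.

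**Figure D3:**
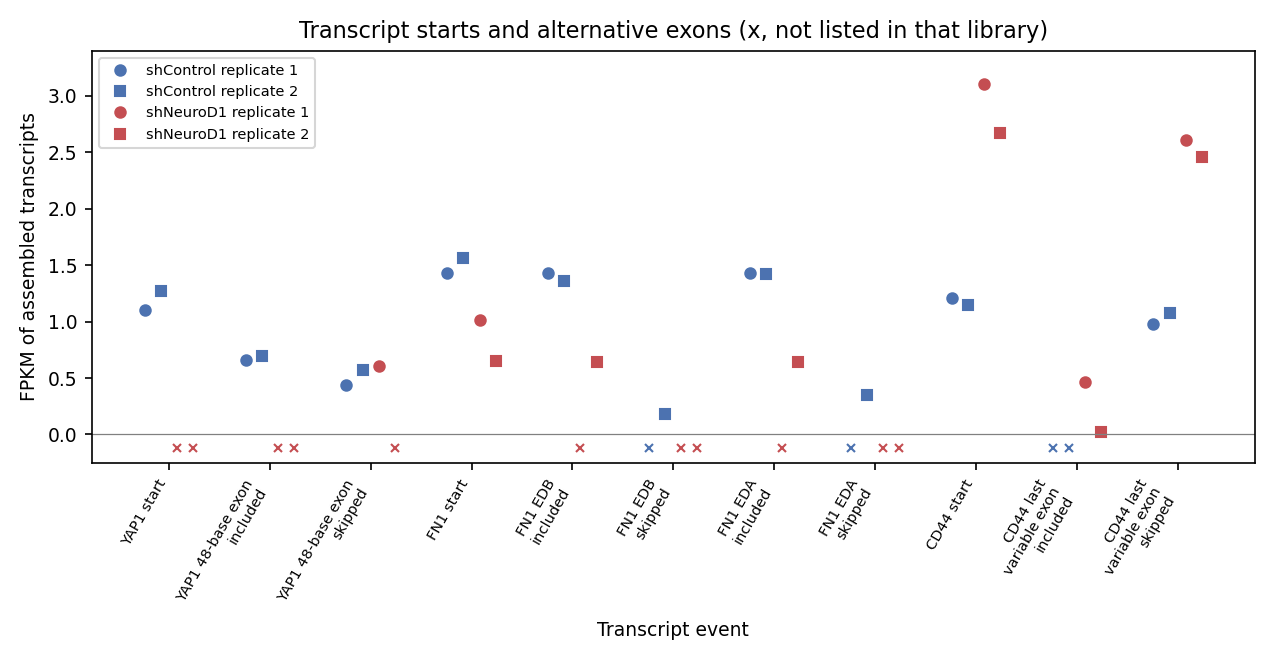
FPKM of assembled transcripts of YAP1, FN1 and CD44 in each library, for the main transcript start and for the inclusion or skipping of alternative exons (blue, shControl; red, shNeuroD1; circles, replicate 1; squares, replicate 2). Crosses under the zero line mark events not listed in a library; CD44 transcripts that skip the last variable exon lie at or above 2.46 FPKM in shNeuroD1 and at or below 1.08 in shControl.

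AXL had 5 counts in shControl replicate 1, 17 in replicate 2, and 3 and 6 in shNeuroD1. The groups overlapped, and the higher control value was that of shControl replicate 2. AXL was itself among the genes by which that library was seen to stand apart. Fitted without a filter on low counts, the edgeR log2 fold change was -1.26 ± 0.71 (SE, adjusted p = 0.286). AXL lies at chr19:41219203-41261766 on the plus strand and shares 67 exonic bases with AC011510.1, which had no counts.

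Genes listed around FN1, CD44 and AXL were lower in part, and most of the lower ones were the integrin subunits named below. Of 15 listed ligands, receptors, related receptors and enzymes, 12 were tested, 6 were lower, 1 was higher and 5 did not pass. The median log2 fold change of the tested genes was -0.29. The shares over all tested genes were 28.2% lower and 26.8% higher. ITGB1, the beta subunit shared by most fibronectin receptors, had 6245 and 6665 counts in shControl against 3103 and 3089 in shNeuroD1 (log2 fold change -1.05). ITGA4, which pairs with it to bind fibronectin, went from 1203 and 1219 counts to 425 and 493, a log2 fold change of -1.39. MMP14, a membrane protease that cleaves matrix and CD44, fell from 98 and 108 counts to 47 and 44, and ITGA5, the main alpha subunit for fibronectin, from 25 and 47 to 19 and 18. The log2 fold change of ITGA5 was -0.94 (edgeR adjusted p = 0.0233), and -0.48 without shControl replicate 2, where it did not pass (adjusted p = 0.290), nor did it with DESeq2 (adjusted p = 0.219). ITGAV, another alpha subunit, was lower by a log2 fold change of -0.42. Named after its value was seen, GAS6, the ligand of AXL, had 407 and 437 counts in shControl against 430 and 497 in shNeuroD1 and did not pass (log2 fold change 0.14, adjusted p = 0.163, edgeR). Without shControl replicate 2, 4 genes of the list were lower and 1 was higher.

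Matrix and cytoskeleton genes of mesenchymal cells split in both directions. Of 30 listed, 23 were tested, 10 were higher, 7 lower and 6 did not pass, with a median log2 fold change of 0.26. VIM, the intermediate filament vimentin, had 3586 and 3796 counts in shControl against 8359 and 8283 in shNeuroD1 (log2 fold change 1.18). ANXA2, a membrane-binding annexin, went the other way, from 10396 and 10417 counts to 3399 and 3360, a log2 fold change of -1.62. TAGLN2, an actin-binding protein, rose by a log2 fold change of 1.23, and S100A6, a calcium-binding protein, fell by 1.42 on the log2 scale. With scaling by library totals 14 were higher and 7 lower, and without shControl replicate 2 there were 10 and 6.

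FOSL2 is an AP-1 subunit that pairs with JUN proteins. Its counts were 93 and 125 in shControl, compared with 107 and 127 in shNeuroD1. The groups overlapped, and the log2 fold change of 0.11 did not pass (95% interval -0.21 to 0.44, edgeR adjusted p = 0.594). Its direction turned to -0.03 without shControl replicate 1 and to -0.02 without shNeuroD1 replicate 2. FOSL2 lies at chr2:28392448-28417312 on the plus strand.

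FOSL1, the subunit most tied to the mesenchymal state, had 0 and 10 counts in shControl against 0 and 2 in shNeuroD1. Nearly all its reads came from shControl replicate 2, and both replicates 1 had none. It lies at chr11:65892049-65900573 on the minus strand. Without a filter on low counts the edgeR log2 fold change had an adjusted p of 0.449.

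The other AP-1 subunits included several lower ones. Of 10 listed, 9 were tested, 4 were lower, 2 higher and 3 did not pass, with a median log2 fold change of -0.14. Of all tested genes 28.2% were lower and 26.8% higher. FOSB, an immediate-early gene, had 53 and 75 counts in shControl against 10 and 5 in shNeuroD1 (log2 fold change -3.06). ATF3, a stress-induced factor, went from 312 and 341 counts to 116 and 105, and FOS fell by 0.63 on the log2 scale. FOS did not pass without shControl replicate 1 (edgeR adjusted p = 0.0764) or without replicate 2 (adjusted p = 0.0662), which left 3 lower subunits in each case. JUN, the most common partner of FOS proteins, rose from 1043 and 1050 counts to 1548 and 1537, a log2 fold change of 0.57. MAFK, a small MAF protein, rose by 0.90 on the log2 scale, and MAFG, its paralogue, did not pass (-0.09, adjusted p = 0.140, edgeR).

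Transforming growth factor beta, a known inducer of SNAI2, TWIST1 and FN1, was described by 11 ligands, receptors and mediators. Among the 10 tested 5 were lower, 1 was higher and 4 did not pass, with a median log2 fold change of -0.32. Over all tested genes the shares were 28.2% lower and 26.8% higher. TGFBR3, a co-receptor, had 64 and 81 counts in shControl against 35 and 19 in shNeuroD1, and SMAD7, an inhibitory mediator, 316 and 323 against 145 and 180. LTBP1, which stores the latent ligand in the matrix, was lower by a log2 fold change of -0.60, and the abundant SMAD4 and TGFBR1 by -0.39 and -0.34. The receptor TGFBR2, named after its values were seen, was too low to test. It had 1 and 8 counts in shControl against 0 and 2 in shNeuroD1. The ligand TGFB2 rose from 77 and 68 counts to 109 and 110, a call that was lost without shControl replicate 2 (edgeR adjusted p = 0.0915), as was that of TGFBR3 (adjusted p = 0.0718).

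**Figure D4:**
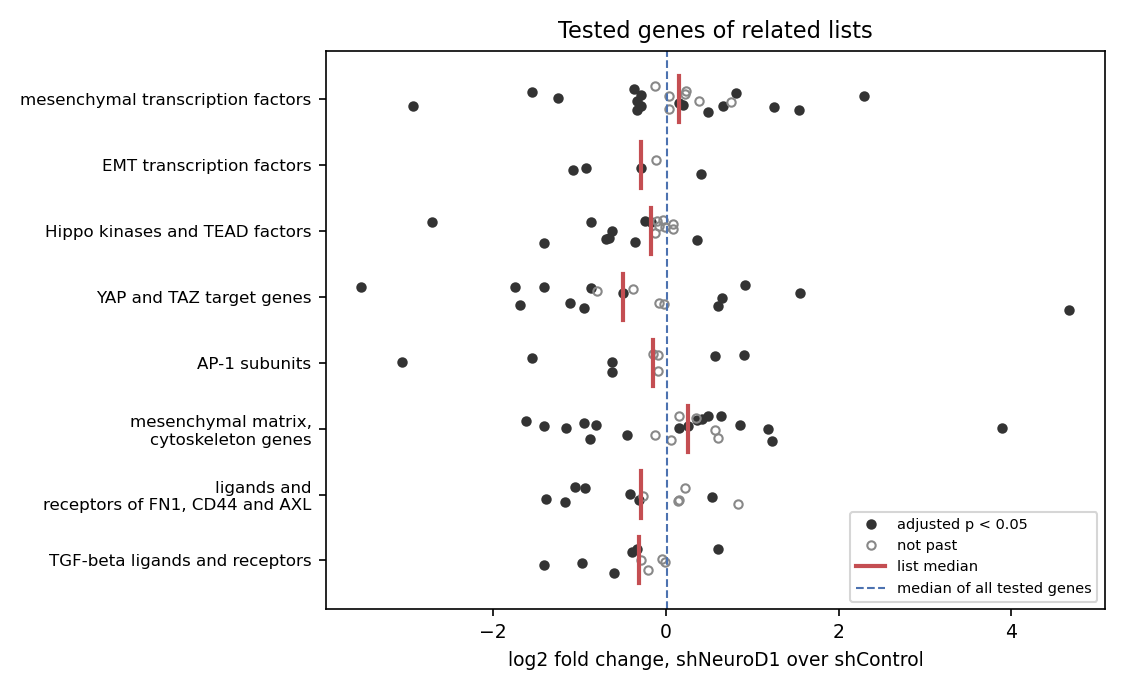
Log2 fold change, shNeuroD1 over shControl, of every tested gene in 8 lists around the mesenchymal state genes (filled, edgeR adjusted p under 0.05; open, not past). Red bars are list medians, from -0.49 for YAP and TAZ targets to 0.26 for matrix and cytoskeleton genes, and the dashed line is the median of all tested genes, 0.01.

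Markers of other cells were checked in the same libraries. Fibroblast markers summed to 197 to 203 CPM in shControl and 126 to 132 in shNeuroD1, with 4 of 6 tested markers higher and 2 lower. POSTN and FAP were at 0 in all libraries, COL1A2 and DCN had at most 3 and 5 counts, and most of the sum came from PDGFRA, a receptor for platelet-derived growth factor, with 1608 and 1751 counts in shControl against 634 and 575 in shNeuroD1, and from THY1, a surface glycoprotein that is also in the matrix list, with 638 and 682 against 775 and 797. COL1A1 was lower by a log2 fold change of -0.94, and LUM and PDGFRB were higher by 1.62 and 0.64, PDGFRB not passing without shControl replicate 1 (edgeR adjusted p = 0.0677). Schwann cell precursor markers summed to 91.5 to 92.0 CPM in shControl and 13.3 to 14.1 in shNeuroD1, with 2 higher and 1 lower of 5 tested, and 1 higher without shControl replicate 2, without shNeuroD1 replicate 2 or with DESeq2. The lower one was the nerve growth factor receptor NGFR, which made most of the control sum and had 1269 and 1374 counts in shControl against 69 and 61 in shNeuroD1, while FOXD3 and CDH19 were at 0, SOX10 had at most 17 counts and S100B 3 to 31. Leukocyte and endothelial markers summed to at most 2.24 CPM in any library, with CD3E at 0, 18 and 17 counts of CDH5 in shControl against 1 and 0 in shNeuroD1, and 7 and 5 of VWF against 23 and 20. Among adrenergic markers HAND2 was lower by a log2 fold change of -0.13, DBH by -1.01, and CHGA and TH were higher by 0.75 and 2.48. HAND2 was -0.02 with scaling by library totals and did not pass there (edgeR adjusted p = 0.646) or without shNeuroD1 replicate 2 (adjusted p = 0.117). DBH did not pass when any 1 library was left out (adjusted p = 0.0634 to 0.1504), with scaling by library totals (0.0596) or with DESeq2 (0.280). The part of any of these cell types in the members' values was not tested.

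The transcript tables gave few further values for the remaining members. The SNAI2 transcript end had 3.41 and 4.59 FPKM in shControl and 3.14 and 3.18 in shNeuroD1, lower in both knockdown libraries. The FOSL2 end had 0.701 and 0.897 FPKM in shControl and 0.900 and 1.02 in shNeuroD1, again close between the groups. The highest listed TWIST1 start had 1.59 and 0.796 FPKM in shControl and 2.43 and 1.21 in shNeuroD1, so the groups overlapped. These values were far below the 68.2 and 46.3 CPM per kb of the counts, and cannot weigh the lower counts in shNeuroD1. WWTR1 had 1 start, in shNeuroD1 replicate 2 at 0.0872 FPKM, and FOSL1 and AXL had no start, end or skipped exon listed.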

How the data were processed

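The members and all gene lists were chosen with earlier results of these data known, and the lists were written by hand from general knowledge. Groups and replicate numbers came from the sample titles. The authors deposited raw read counts per Ensembl gene for the 4 libraries. The submitters' processing notes name cutadapt 1.9.1, HISAT2 2.0.1, HTSeq 0.6.1, DESeq2 and build hg38. The use of strand and the annotation release are not given in the sources used here. The authors also deposited FPKM values of transcript starts, ends and splicing events, which list only values above 0 and whose tool is not given in the sources used here. The count table also holds the authors' fold changes and p-values, which were not used.

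Counts were fitted over the whole table in edgeR 4.0.16 (R 4.3.3) with filterByExpr (minimum count 10, 17537 of 60612 genes kept), TMM scaling and the two-sided quasi-likelihood F test, p-values being adjusted by Benjamini-Hochberg across the genes tested. Calls used an adjusted p under 0.05, with and without a log2 fold change beyond 1. The SE is the log2 fold change divided by the square root of F, and the 95% interval is 1.96 SE to each side. Depth was 14665210 to 16482463 counts. Alternatives were DESeq2 1.42.0, limma 3.58.1 on log2(FPKM + 1) and log2(FPKM + 0.1) summed over a gene's transcript starts where the mean reached 1 FPKM, other scalings and filters, a replicate block and each library left out. The edgeR, DESeq2 and limma fits were tested on simulated data. All members and NEUROD1 were named, and in each list the 2 genes of highest mean CPM and the 4 of largest change among those with an adjusted p under 0.05 and at least 1 CPM, apart from a few list genes that are not reported here. Merged exon lengths, positions and exon sequences came from GENCODE 29 (GRCh38), and promoters from RefSeq (GRCh38.p14).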

Additional observations from a re-analysis of the deposited data

Results flagged for a closer look

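Transcripts that include the last variable exon of CD44 were listed in both shNeuroD1 libraries, at 0.462 FPKM in replicate 1 and 0.0225 FPKM in replicate 2, and in neither shControl library. These values are exon events of the transcript tables, which entered no test, the FPKM fits being made on transcript starts. The shNeuroD1 libraries also had more CD44 reads, 263 and 314 against 130 and 146, and the part of depth in this listing was not tested.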

How the results depend on the processing

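Counts over all genes are given as higher and lower, with both thresholds. They were 1541 and 902, and 1228 to 1370 and 790 to 886 when each library was left out. DESeq2 called 998 higher. limma on log2(FPKM + 1) called 186 and 201, and on log2(FPKM + 0.1) 174 and 206. With the adjusted p alone there were 4698 and 4939. Of the members, 1 was higher and 1 lower. On FPKM 0 and 0 of them were called, where only TWIST1, FN1 and CD44 had transcript starts that summed to a mean of at least 1 FPKM (SNAI2 had no start listed). With the adjusted p alone, 4 were lower. When each library was left out, 0 to 1 were higher and 1 was lower, and 0 were higher without shNeuroD1 replicate 2. 2 directions reversed, neither past the threshold. TWIST1 was 0.0283 and 0.0706 in the FPKM fits, where its listed starts were far below its counted level. FOSL2 ranged from -0.0342 to 0.285 when each library was left out. Of 66 refitted log2 fold changes of members, 53 did not change sign or cross the threshold, 9 no longer passed and 4 reversed, and the cause was not tested. Of 144 list counts recomputed in ways chosen after seeing the data, 125 stayed within 1.5 times.

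Replicate numbers did not pair the libraries (correlation of deviations 0.0186 over genes). With a replicate block 1511 genes were higher and 899 lower, 1 member each way, and no member's call changed. WWTR1, AXL and FOSL1 were left out by the filter on low counts and did not pass when fitted without it.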
